A study of Mus musculus with 2 samples.

Results

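The 10 genes described here carry out or control antigen presentation on MHC class I, and they were chosen by name, as H2-K1, H2-D1, B2m, Tap1, Tap2, Tapbp, Psmb8, Psmb9, Psmb10 and Nlrc5. All 10 were among the 17139 genes listed in both libraries, and all 10 reached a level of 5 CPM, UMIs of the gene per 1000000 UMIs of the library, in at least 1 library. They were measured by droplet-based scRNA-seq in endothelial cells (ECs) sorted as live CD31+ CD45- cells from LLC tumours, a Lewis lung carcinoma line grown under the skin of adult C57BL/6 mice. Of the 2 libraries, 1 came from the tumour of 1 mouse injected with PBS and 1 from that of another mouse injected with cGAMP, a cyclic dinucleotide that binds STING. The methods and the legend of the study's main figure on these LLC tumour ECs place their collection a day after the injection. A supplementary legend that concerns scRNA-seq of cGAMP-treated tumours gives a shorter interval, so some uncertainty about the time remains. The labels name no genetic change, and the methods give the J substrain. The 2 libraries held 92081146 UMIs in 2517 cells and 63366746 UMIs in 1340 cells. The comparison asks how the presentation machinery of tumour ECs differed after STING activation, over all ECs and within each EC state. As each condition is 1 library, the spread between mice is unknown and no test could be made. What cGAMP did and how the 2 mice or their libraries differed otherwise cannot be told apart, and all intervals are 95% intervals that cover counting error only.

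MHC class I molecules display peptides from inside the cell to CD8+ T cells. Peptides are cut by the proteasome, pumped into the endoplasmic reticulum by the transporter TAP, and loaded with the help of tapasin onto a heavy chain that pairs with beta-2-microglobulin. Interferons raise most of these genes in nearly all cell types, and they exchange the catalytic subunits of the proteasome for inducible ones, which gives the immunoproteasome. ECs line the vessels through which T cells enter a tumour and present antigen on class I.

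Most of these genes sit in the MHC region of chromosome 17 (positions on GRCm38, the build also called mm10). In it, H2-K1 lies at chr17:33996017-34000347, Tapbp at chr17:33915899-33929292 and H2-D1 at chr17:35262730-35267499. Psmb9 (chr17:34181987-34187764), Tap1 (chr17:34187553-34197225), Psmb8 (chr17:34197721-34201454) and Tap2 (chr17:34203527-34216321) follow each other closely, and Psmb9 and Tap1 overlap at their starts on opposite strands. B2m lies outside the region, at chr2:122147686-122153083, and so do Nlrc5 (chr8:94434356-94527272) and Psmb10 (chr8:105935735-105938444). Genes on the opposite strand also overlap Tap2, Tapbp, Psmb8, Psmb10, B2m (Patl2) and Nlrc5, and on the same strand Zbtb22 overlaps Tapbp and Mir7072 overlaps Nlrc5. Whether strand was used in the counting is not given in the sources used here, so the counts of these genes are uncertain to that extent.

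Promoter windows of 300 bases, from 250 bases before to 50 bases after the start site, were found for 8 of the 10 genes in RefSeq sequence of GRCm38.p6. They are shown for the 4 genes whose windows held any of the motifs below, and for Tap1, whose window overlaps that of Psmb9 and held none. The windows of Psmb9, Tapbp and Psmb10 also held none and are not shown. Capitals mark matches to the core of an interferon-stimulated response element (ISRE), which is GAAA, any 2 bases and GAAA again, to its shortened form GAANNGAAA, to TTCNNNGAA, the gamma-activated site (GAS), and to GGGATTCCC, a site of NF-kB, on either strand. H2-K1 is at chr17:34000298-34000597 on the minus strand, H2-D1 at chr17:35262844-35263143, B2m at chr2:122147437-122147736, Tap1 at chr17:34187306-34187605 and Psmb8 at chr17:34197945-34198244, all on the plus strand.
H2-K1: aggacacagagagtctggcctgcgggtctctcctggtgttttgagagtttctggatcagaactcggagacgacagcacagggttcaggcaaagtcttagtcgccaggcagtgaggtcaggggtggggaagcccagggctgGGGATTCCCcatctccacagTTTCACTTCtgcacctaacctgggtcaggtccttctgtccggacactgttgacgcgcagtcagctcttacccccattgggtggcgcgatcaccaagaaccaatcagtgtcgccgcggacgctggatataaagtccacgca
H2-D1: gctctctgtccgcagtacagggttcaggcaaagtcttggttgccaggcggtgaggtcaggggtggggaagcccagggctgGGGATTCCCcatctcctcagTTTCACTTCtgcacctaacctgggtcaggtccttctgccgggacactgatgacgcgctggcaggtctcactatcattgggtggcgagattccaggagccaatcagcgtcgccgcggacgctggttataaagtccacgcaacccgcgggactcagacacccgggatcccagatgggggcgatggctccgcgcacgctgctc
B2m: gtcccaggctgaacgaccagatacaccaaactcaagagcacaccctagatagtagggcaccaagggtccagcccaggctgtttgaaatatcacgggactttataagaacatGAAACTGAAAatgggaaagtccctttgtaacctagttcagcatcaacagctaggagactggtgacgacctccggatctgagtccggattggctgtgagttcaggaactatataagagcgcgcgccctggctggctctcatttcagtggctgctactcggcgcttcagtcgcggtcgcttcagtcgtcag
Tap1: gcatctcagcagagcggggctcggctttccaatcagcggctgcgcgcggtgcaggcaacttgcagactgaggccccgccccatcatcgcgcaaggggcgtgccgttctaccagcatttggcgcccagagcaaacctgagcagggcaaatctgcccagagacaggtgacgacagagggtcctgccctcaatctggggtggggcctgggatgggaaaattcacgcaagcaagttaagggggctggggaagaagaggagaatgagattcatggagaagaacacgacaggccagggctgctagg
Psmb8: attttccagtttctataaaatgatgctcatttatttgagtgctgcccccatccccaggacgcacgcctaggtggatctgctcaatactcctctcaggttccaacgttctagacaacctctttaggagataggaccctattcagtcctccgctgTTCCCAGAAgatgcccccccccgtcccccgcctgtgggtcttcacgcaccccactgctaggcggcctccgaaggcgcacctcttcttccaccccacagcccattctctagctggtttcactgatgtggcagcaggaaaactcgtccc
In both heavy chain promoters the NF-kB site was followed by a reverse match to the shortened ISRE, TTTCACTTC. The NF-kB site began at position -110 in H2-K1 and -170 in H2-D1, counted from the start site, and the ISRE at -90 and -150. In another window of H2-K1, from a different start site, they began at -124 and -104. Start sites of the windows of H2-D1, Psmb8, Psmb9, Psmb10 and Tapbp also differ from the gene starts given above. For Psmb9, on the minus strand, the start site of the window is 34187330 and the gene start is 34187764. Positions and matches therefore depend on the start site chosen. Over 91 bases, from 30 before to 60 after the first base of the NF-kB site, the 2 promoters were identical at 88 bases, or 96.7%. The window of H2-Q6, a further heavy chain gene, was identical to that of H2-D1 at 84 of these bases. B2m held the full ISRE core GAAACTGAAA at -139, and Psmb8 held a GAS, TTCCCAGAA, at -97. The Tap1 window overlaps that of Psmb9, whose start site used here lies 226 bases away, with the gene running in the other direction. None of the 4 motifs was found in either window, and windows at the annotated gene start of Psmb9 were not searched. Of all 32851 promoter windows in the table, 3.44% held the ISRE core, 7.52% its shortened form, 8.30% the GAS and 0.353% the NF-kB site. The ISRE core and its shortened form differ in spacing, and no match of one holds the other. A match describes letters in the window and not binding. The shortened form was added after the promoters had been seen.

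Over all ECs, all 10 genes were higher in the cGAMP library, by 1.74-fold to 3.02-fold, and 7 of them by at least 2-fold. Of the 9509 genes that reached 5 CPM in the same way, 1.82% were at least 2-fold higher and 40.4% were higher by any amount. The median log2 ratio of the 10 genes was 1.34, against -0.08 over all of these genes. Together the 10 genes made up 0.456% of the UMIs of the PBS library and 1.24% of those of the cGAMP library, a 2.73-fold difference. Levels are UMIs counted at the 3' end and are not scaled to transcript length. They are compared mainly between libraries. Where genes are set side by side below, the values are UMIs, and whether genes differ in how well they are captured was not tested.

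The classical heavy chains of C57BL/6 mice, H2-K1 and H2-D1, hold the peptide and face the T cell receptor. H2-K1 was at 1139 CPM in the PBS library (exact Poisson interval 1132 to 1146) against 3435 CPM in the cGAMP library (3420 to 3449), a log2 ratio of 1.59 (1.58 to 1.60), the highest of the 10. H2-D1 was at 1536 CPM (1528 to 1544) and 4218 CPM (4202 to 4234), a log2 ratio of 1.46 (1.45 to 1.47). Counted per cell, this was a mean of 41.7 UMIs of H2-K1 in PBS-treated ECs against 162 in cGAMP-treated ECs, in which cells also had more UMIs in all. B2m encodes the light chain that every class I heavy chain needs to reach the surface. It was at 1255 CPM (1248 to 1262) and 3274 CPM (3260 to 3288), a log2 ratio of 1.38 (1.37 to 1.39). Heavy and light chains were thus each between 2.61-fold and 3.02-fold higher in the cGAMP library.

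Tap1 and Tap2 encode the subunits of the peptide transporter, and Tapbp encodes tapasin, which holds empty class I molecules at it. Tap1 was at 63.6 CPM (62.0 to 65.2) in the PBS library against 149.9 CPM (147 to 153) in the cGAMP library, a log2 ratio of 1.24 (1.19 to 1.28). Tap2 was at 59.9 CPM (58.3 to 61.5) and 107 CPM (104 to 110), a log2 ratio of 0.84 (0.79 to 0.89), which did not reach 2-fold. The counting intervals of the ratios of these partner genes did not overlap. Tapbp was at 91.7 CPM (89.8 to 93.7) and 269 CPM (265 to 273), a log2 ratio of 1.55 (1.51 to 1.59), the second highest of the 10, with an interval that overlapped that of H2-K1.

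Psmb8, Psmb9 and Psmb10 encode the inducible catalytic subunits, also called LMP7, LMP2 and MECL-1. Psmb8 was at 244 CPM (241 to 247) in the PBS library against 621 CPM (615 to 627) in the cGAMP library, a log2 ratio of 1.35 (1.32 to 1.37). Psmb9 was at 75.4 CPM (73.7 to 77.2) and 189 CPM (185 to 192), a log2 ratio of 1.32 (1.28 to 1.37). Psmb10, the subunit encoded outside the MHC, was at 89.8 CPM (87.9 to 91.8) and 171 CPM (168 to 174), a log2 ratio of 0.93 (0.89 to 0.97), below the other two.

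Nlrc5 encodes the transactivator of class I genes. It was at 6.36 CPM (5.86 to 6.90) in the PBS library against 11.1 CPM (10.3 to 11.9) in the cGAMP library, a log2 ratio of 0.80 (0.64 to 0.96), the lowest of the 10. It had 586 and 703 UMIs in all, and its level was close to that of the leucocyte transcript Lyz2, at 5.21 and 12.6 CPM. The intervals of all 10 genes lay apart between the libraries, as the plot of levels in each library shows. At this depth a small difference can separate intervals too. Those of the chaperone gene Calr, at 775 to 787 and 849 to 863 CPM, lay apart at a log2 ratio of 0.13. The share of all genes with separate intervals was not counted, so the separation does not mark the 10 genes.

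**Figure D1:**
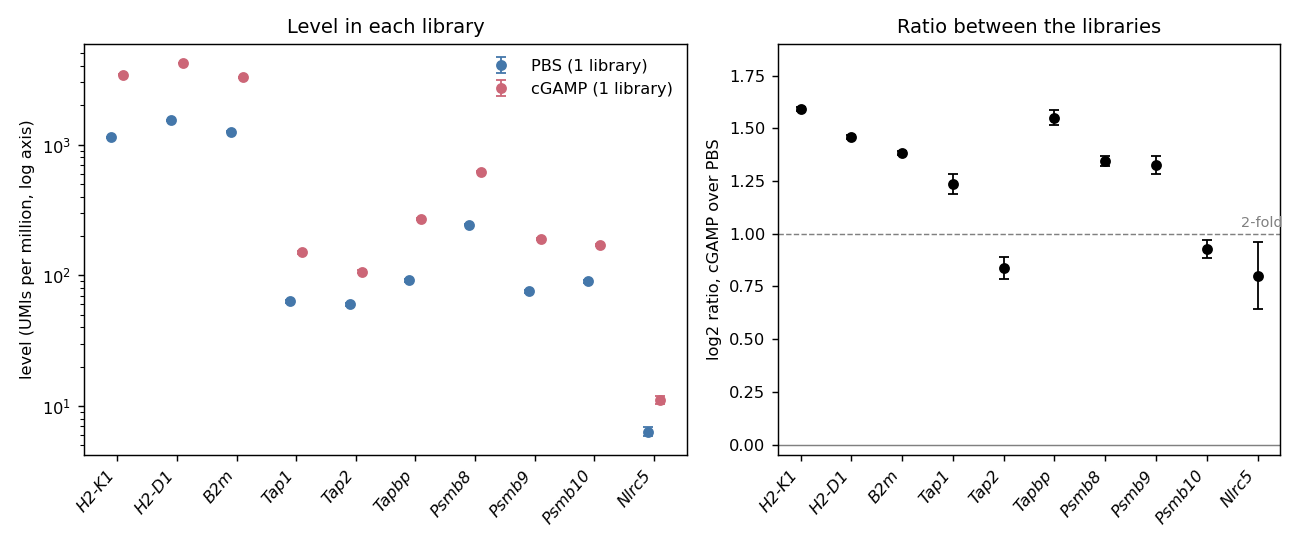
Levels of the 10 genes in each library in CPM on a log axis (left) and log2 ratio of cGAMP over PBS (right). Points are sums over all ECs of 1 library, bars are exact 95% counting intervals and the dashed line marks 2-fold. All 10 ratios lie above 0, and those of Tap2, Psmb10 and Nlrc5 lie below the 2-fold line.

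Other cells and RNA quality differed between the libraries as well. The endothelial markers Pecam1 and Cdh5 were found in 98.1% and 98.9% of thinned PBS-treated ECs against 96.7% and 98.3% of cGAMP-treated ECs. Of 7 endothelial markers, summed at 4869 CPM in the PBS and 5783 CPM in the cGAMP library, 2 were higher in the cGAMP library. These were Emcn (575 and 952 CPM) and Egfl7 (1181.5 and 2122 CPM), and the others, with Pecam1 and Cdh5 among them, were lower. Of 17 leucocyte markers with values, 14 were higher in the cGAMP library and none was at 0 in either, and their summed level was 35.8 CPM in the PBS library against 72.6 CPM in the cGAMP library. The defining leucocyte gene Ptprc, which encodes CD45, was at 0.25 and 0.60 CPM, and the neutrophil gene S100a9 at 0.27 and 9.96 CPM. Of 5 pericyte markers, summed at 48.9 and 59.8 CPM, Kcnj8 and Abcc9 were higher in the cGAMP library and Rgs5 (5.46 and 1.75 CPM), Pdgfrb and Cspg4 lower, and Kcnj8 was also a leading gene of a tip-like EC cluster described below. Summed levels of 5 fibroblast markers were 7.22 and 2.97 CPM and those of 4 epithelial markers 2.15 and 0.395 CPM. Of 5 lymphatic EC markers, summed at 18.05 and 45.02 CPM, Lyve1 (10.2 and 43.6 CPM) and Pdpn were higher, Prox1 (2.01 and 0.994 CPM) and Mmrn1 were lower, and Ccl21a was at 5.35 CPM in the PBS library and had 0 UMIs in the cGAMP library. The part of lymphatic ECs and pericytes in the results was not tested. Without the cells that held any UMI of these leucocyte markers, which left 1170 PBS-treated and 224 cGAMP-treated ECs, the log2 ratio of the 10 genes summed was 1.41, against 1.45 over all ECs. The median share of mitochondrial UMIs was 4.49% in PBS-treated and 2.87% in cGAMP-treated ECs, and among cells with at most 5% the log2 ratio of the sum was 1.41.

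Across the rest of the pathway, most of the other class I heavy chains were higher in the cGAMP library, and no gene of peptide loading and trimming reached 2-fold in either direction. The lists together held 52 genes, of which 42 reached 5 CPM in either library, and 6 of these were at least 2-fold higher and 0 at least 2-fold lower, where 1.82% of all genes were at least 2-fold higher and 1.7% at least 2-fold lower. All 6 were heavy chains, out of 11 on that list that reached 5 CPM. The median log2 ratio of that list was 1.17. It was 0.06 over the 12 genes of loading and trimming, 0.44 over the 7 further proteasome genes and -0.05 over the 12 regulators, of which 5 were higher and 7 lower, a split close to the 40.4% higher among all genes.

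Among the non-classical heavy chains, H2-T23 encodes Qa-1, a ligand of inhibitory and activating receptors of NK cells. It was at 47.4 CPM in the PBS library against 341 CPM in the cGAMP library, a log2 ratio of 2.85 (2.80 to 2.89), above that of every one of the 10 genes. H2-T22, which is recognised by gamma-delta T cells, was at 103 and 438 CPM, and its log2 ratio was 2.09 (2.06 to 2.12). The genes of the Qa-2 family, H2-Q6 and H2-Q7, were at 68.7 and 210.3 CPM in the PBS library and at 281 and 766 CPM in the cGAMP library, log2 ratios of 2.03 (1.99 to 2.07) and 1.87 (1.84 to 1.89). H2-Q4 had a log2 ratio of 1.80 (1.75 to 1.84), and H2-Q10, at 4.95 and 11.1 CPM (456 and 706 UMIs), one of 1.17. Mr1, which presents vitamin metabolites and was named after its value was seen, was the only tested gene of this list below 0, at -0.70 (-0.95 to -0.46). Another 5 heavy chain genes of the list were not among the genes listed in the libraries, and 3 were below 5 CPM in both.

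Near-identical copies make counts of some of these relatives uncertain. In the last 400 bases of an annotated transcript, 33.2% of windows of 91 bases in H2-T22 were also found in H2-T10, and 7.42% of those in H2-Q6, 12.3% in H2-Q4 and 15.8% in H2-T23 were found in other genes. For each of the 10 members and for H2-Q7 the share was 0%. This check covers exact matches to annotated transcripts only.

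Of the chaperones that fold and load class I molecules, Calr was at 781 CPM in the PBS library against 856 CPM in the cGAMP library, a log2 ratio of 0.13. Canx was at 219.6 CPM and 219.99 CPM (0.00), and Pdia3, also called ERp57, at 394 and 516 CPM (0.39). The proteasome activator gene Psme1 was at 181 and 342 CPM, a log2 ratio of 0.92 (0.89 to 0.95), and the assembly factor Pomp at 631 and 818 CPM (0.37). The constitutive catalytic subunits Psmb5, Psmb6 and Psmb7 had log2 ratios of 0.40, 0.44 and 0.44. Among the regulators, Irf1, a factor that binds ISREs, was at 56.8 and 94.5 CPM, a log2 ratio of 0.73 (0.68 to 0.79). Irf2, a relative of Irf1, was at 76.1 and 63.6 CPM, a log2 ratio of -0.26 (-0.31 to -0.20).

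**Figure D2:**
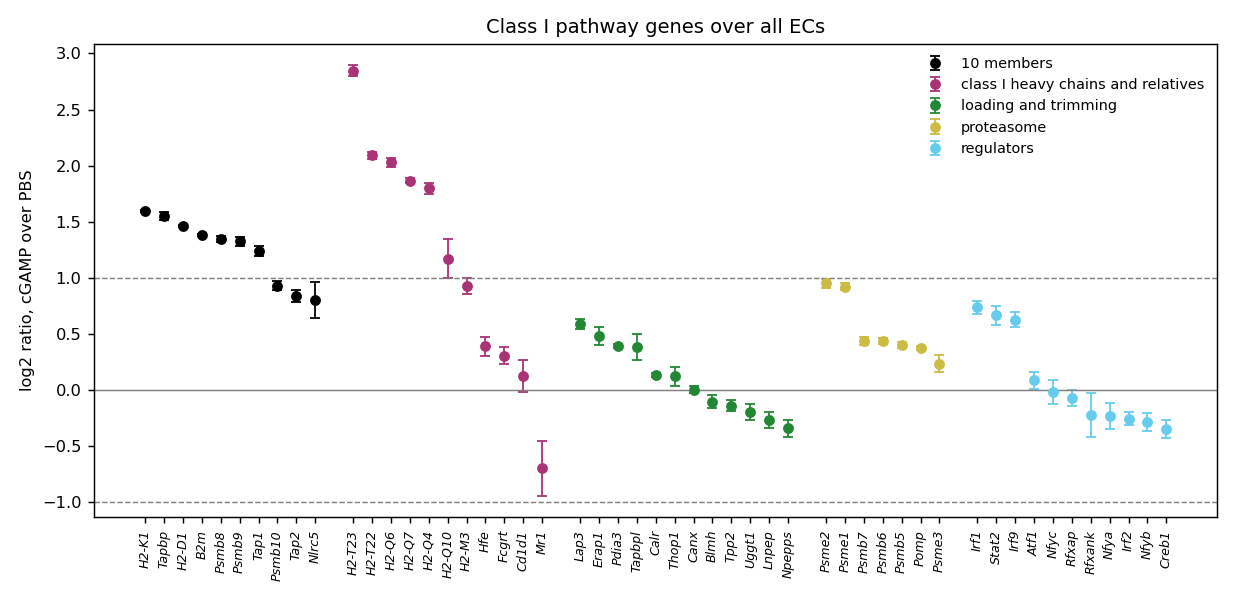
The log2 ratio of cGAMP over PBS over all ECs for the 10 genes and for each gene reported from the 4 pathway lists that reached 5 CPM. Points are 1 gene each, bars are exact 95% counting intervals and dashed lines mark 2-fold in either direction. The heavy chain relatives reach 2.85, while genes of loading and trimming lie between -0.34 and 0.59.

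Proteasomes incorporate Psmb8 in place of Psmb5, Psmb9 in place of Psmb6 and Psmb10 in place of Psmb7. The ratio of their UMIs within a library does not depend on how libraries are scaled. The ratio of Psmb8 to Psmb5 was 0.881 in PBS-treated ECs (exact interval 0.865 to 0.897) against 1.70 in cGAMP-treated ECs (1.67 to 1.73), a 1.93-fold difference. That of Psmb9 to Psmb6 was 0.330 (0.321 to 0.339) and 0.611 (0.598 to 0.625), a 1.85-fold difference. That of Psmb10 to Psmb7 was 0.639 (0.621 to 0.657) and 0.897 (0.874 to 0.921), a 1.40-fold difference. The inducible subunits were therefore higher beyond the difference of their counterparts, and least so for Psmb10. In the end of Psmb5, 47.1% of the 91-base windows were also found in Gm3375, so its counts are uncertain.

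EC states were rebuilt by clustering, without the 10 genes, the pathway lists, a fixed list of interferon genes or genes that differed 2-fold between the libraries. The levels of the 10 genes therefore did not make the clusters. Genes that vary with the 10 but were on no list, such as Parp9 and Trim30a, were not left out by this rule. The 2517 PBS-treated and 1340 cGAMP-treated ECs fell into 8 clusters, each of them with cells of both libraries. A stalk-like cluster led by Ackr1 and Selp held 348 and 330 cells, an arterial cluster led by Gja4 and Nts 355 and 177, and a proliferative cluster led by Ube2c and Cenpf 492 and 183. Tip-like ECs formed a cluster led by Gal and Chga of 380 and 117 cells and a cluster led by Pgf and Bnip3 of 104 and 67 cells. The interferon-stimulated gene Rsad2 was among the 10 leading genes of the Gal cluster. A further 3 clusters stayed unnamed, led by Ramp3 and Igfbp3 (608 and 274 cells), by Ung and Hells, genes of DNA synthesis and repair (185 and 140 cells), and by Igfbp5 and Ctsh (45 and 52 cells). The Igfbp5 cluster had 11 stalk-like markers raised 2-fold, against 10 in the stalk-like cluster. It stayed unnamed because none of them was among its 10 leading genes, so it is not shown to be distinct from stalk-like ECs.

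In all 8 clusters each of the 10 genes was higher in the cGAMP library, with log2 ratios from 0.35 for Nlrc5 in the Ramp3 cluster to 1.96 for H2-K1 in the Ung cluster. Of all genes that reached 5 CPM, 14.2% were higher in every cluster. Of the 80 ratios, 62 were at least 2-fold. The counting interval of Nlrc5 in the Ramp3 cluster included 0 (0.35, with -0.04 as its lower bound). By cluster, 4 of the 10 genes reached 2-fold in the Ramp3 cluster, where 1.69% of all genes did, 7 in the proliferative cluster (1.69% of all genes) and 7 in the Gal tip-like cluster (1.84%). In the stalk-like and arterial clusters 8 did (2.73% and 2.61% of all genes), in the Ung and Pgf clusters 9 (2.02% and 4.79%) and in the Igfbp5 cluster 10 (5.58%). For 8 of the 10 genes, the lowest cluster of the cGAMP library lay above the highest cluster of the PBS library, which held for 1.39% of all genes. The exceptions were Tap2 and Nlrc5.

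In the PBS library the summed level of the 10 genes was highest in tip-like ECs and lowest in the proliferative and Ung clusters. It was 5863 CPM (5826 to 5901) in the Gal tip-like cluster, 5264 CPM (5190 to 5338) in the Pgf tip-like cluster, 5123 CPM (5075 to 5171) in arterial and 4810 CPM (4762 to 4857) in stalk-like ECs. The Ramp3 and Igfbp5 clusters, at 4392 CPM (4364 to 4419) and 4329 CPM (4201 to 4459), could not be told apart within counting error. The proliferative cluster was at 3861 CPM (3836 to 3887) and the Ung cluster at 3429 CPM (3391 to 3467). Of the 10 genes, 6 had their highest PBS level in the Gal tip-like cluster. The highest cluster was 1.71 times the lowest. H2-K1, H2-D1 and B2m carry this sum, and the other 7 genes summed had another order. They too were highest in the Gal tip-like cluster, at 782 CPM, but the Pgf tip-like cluster, at 529 CPM (506 to 553), overlapped the lowest, which was the Igfbp5 cluster at 514 CPM (470.3 to 559.6).

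In the cGAMP library the order was different, and the stalk-like and arterial clusters were at the top. They were at 14892 CPM (14829 to 14955) and 14788 CPM (14687 to 14890.0), intervals that overlapped, ahead of the Igfbp5 cluster at 14305 CPM (14111 to 14501). The Pgf and Gal tip-like clusters, at 13329 CPM (13201 to 13459) and 13211 CPM (13119 to 13304), overlapped too, and so did the Ramp3 and Ung clusters, at 11335 CPM (11278 to 11392) and 11284 CPM (11211 to 11357). The proliferative cluster was lowest, at 9492 CPM (9436 to 9549). Of the 10 genes, 6 had their highest cGAMP level in stalk-like ECs and 7 their lowest in the proliferative cluster. The spread between clusters was 1.57 times, somewhat less than in the PBS library.

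The log2 ratio of the sum was therefore smallest in the Gal tip-like cluster, at 1.17 (1.16 to 1.19), and largest in the Igfbp5 and Ung clusters, at 1.72 (1.68 to 1.77) and 1.72 (1.70 to 1.74). It was 1.63 (1.62 to 1.65) in stalk-like, 1.53 (1.51 to 1.55) in arterial, 1.37 (1.36 to 1.38) in Ramp3, 1.34 (1.32 to 1.37) in Pgf tip-like and 1.30 (1.28 to 1.31) in proliferative ECs. The PBS level enters both the order of levels and the ratio, so the high level and small ratio of the Gal cluster are not separate observations. H2-K1 shows the pattern. In the Gal cluster it was at 1569 and 3571 CPM (log2 ratio 1.19), and in stalk-like ECs at 1330 and 4292 CPM (1.69).

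The genes of peptide supply did not follow the heavy and light chains in every cluster. In the Ramp3 cluster the log2 ratio was 1.43 for H2-K1, H2-D1 and B2m summed and 0.89 for the other 7 genes summed. The 4 genes that reached 2-fold there were the heavy chains, B2m and Tapbp, and 6 of the 10 had their smallest ratio in it. Tap2 was at 59.5 and 84.0 CPM in that cluster (0.50) and Psmb10 at 96.8 and 134 CPM (0.47). In the Pgf tip-like cluster the order was turned, with 1.29 for the heavy and light chains and 1.70 for the other 7 genes. Psmb8 was at 196 and 756 CPM there (1.95, with 1.83 as its lower bound), Tap2 at 40.4 and 123 CPM (1.61) and Psmb10 at 61.4 and 176 CPM (1.52). That cluster held 104 PBS-treated cells, and its PBS levels of Tap2 and Psmb10 were the lowest of all clusters. The map of ratios by cluster shows both.

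**Figure D3:**
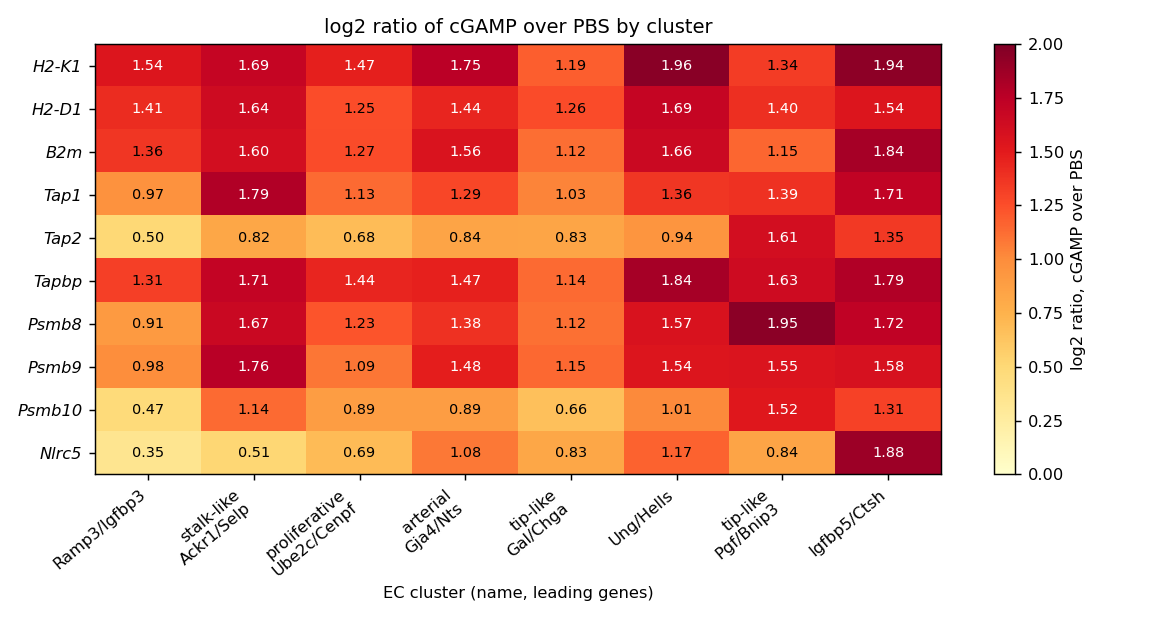
The log2 ratio of cGAMP over PBS for each of the 10 genes (rows) in each EC cluster (columns, with name and leading genes), coloured from 0 to 2. All 80 ratios are above 0, the palest column is the Ramp3 cluster, with values from 0.35 to 1.54, and Tap2, Psmb10 and Nlrc5 have the palest rows.

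Inducible subunits showed the same division. In stalk-like ECs the ratio of Psmb8 to Psmb5 was 1.26 in the PBS library (1.18 to 1.34) against 2.41 in the cGAMP library (2.33 to 2.49), the highest of any cluster. In the Ramp3 cluster it was 0.851 (0.820 to 0.882) and 1.13 (1.09 to 1.17), the smallest difference of any cluster, at 1.33-fold. The Pgf tip-like cluster had the largest, from 0.748 (0.678 to 0.824) to 2.10 (1.95 to 2.25), or 2.80-fold. The ratio was higher in the cGAMP library for 23 of the 24 combinations of pair and cluster. The exception was Psmb10 to Psmb7 in the Ramp3 cluster, at 0.702 (0.664 to 0.742) and 0.695 (0.654 to 0.738), where the intervals overlapped.

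**Figure D4:**
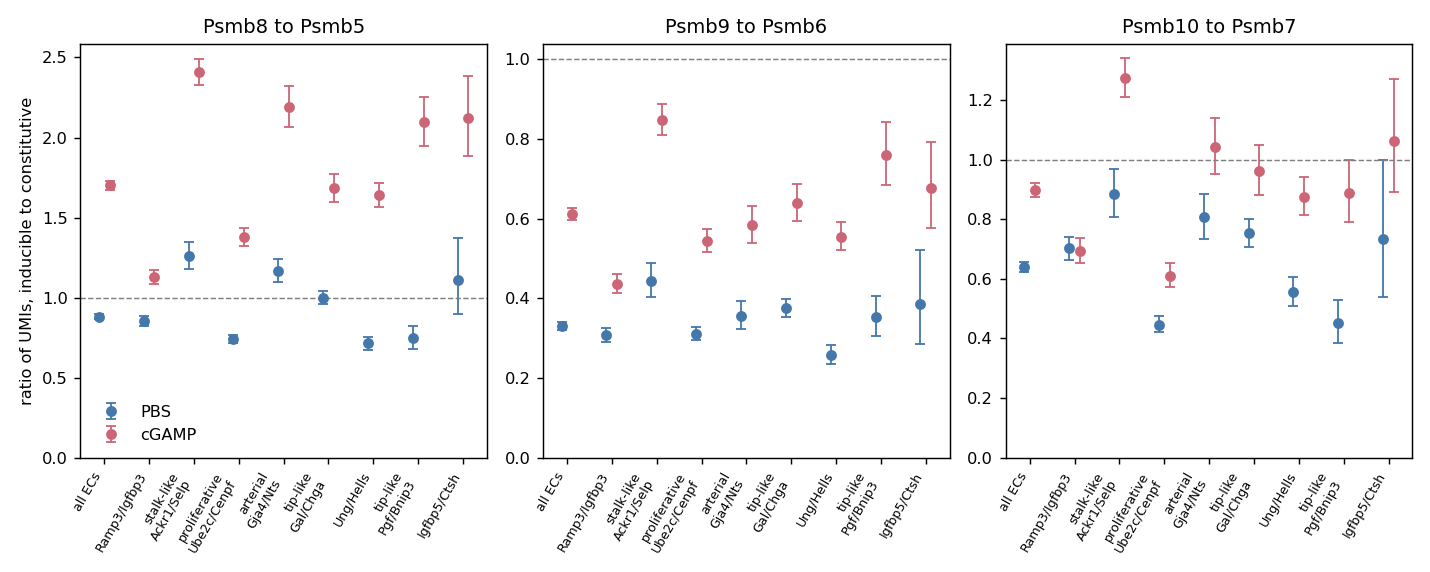
Ratio of the UMIs of each inducible proteasome subunit to those of its constitutive counterpart, over all ECs and in each cluster, in the PBS and the cGAMP library. Points are 1 library, bars are exact 95% counting intervals and the dashed line marks a ratio of 1. Psmb8 reaches 2.41 times Psmb5 in stalk-like ECs of the cGAMP library, and the 2 points for Psmb10 in the Ramp3 cluster overlap.

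Outside the 10 genes, H2-T23 was highest in the Igfbp5 cluster in both libraries, at 206 and 743 CPM, and its log2 ratio there, 1.85, was the smallest of any cluster. In the other clusters its ratio was between 2.51 and 3.20. Irf1 had its largest log2 ratio in the Pgf tip-like cluster, at 1.48, and its smallest in arterial ECs and the Ramp3 cluster, at 0.23 and 0.27. In stalk-like ECs it was 0.62.

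To compare single cells at equal depth, each cell was thinned to 5000 UMIs, for which 70 cells of the PBS library and 13 of the cGAMP library were too shallow. The median depth before thinning was 29780 UMIs in PBS-treated and 41178 in cGAMP-treated ECs. H2-K1, H2-D1 and B2m were then found in 95.5%, 99.0% and 98.5% of PBS-treated ECs against 100%, 100% and 99.9% of cGAMP-treated ECs, so shares of positive cells could not show their difference. The median cell held 5, 7 and 6 UMIs of them in the PBS library and 17, 21 and 16 in the cGAMP library.

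The less abundant genes were found in more of the thinned cGAMP-treated ECs, a share that follows the mean count at this depth and is no separate difference. Tap1 was found in 25.1% of thinned PBS-treated ECs (exact interval 23.4 to 26.9) against 47.8% of cGAMP-treated ECs (45.1 to 50.5), Tap2 in 27.8% and 40.2%, and Tapbp in 36.2% and 69.1%. Psmb8 was found in 65.0% (63.1 to 66.9) and 91.4% (89.8 to 92.9), Psmb9 in 28.3% and 55.3%, and Psmb10 in 33.3% and 50.6%. Without thinning, the shares of these 6 genes were between 70.5% (Tap1) and 95.7% (Psmb8) in the PBS library, and between 92.6% (Tap1) and 99.6% (Psmb8) in the cGAMP library. Nearly all nucleated cells express class I, so no cell type gives a background for these genes, and the leucocyte transcript Lyz2 was used, which was found in 2.37% and 6.10% of the thinned ECs. Nlrc5 was found in 3.19% and 5.65%, at or near this background, and no difference in expressing cells is read from it.

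The distribution of the 10 genes over cells was shifted as a whole. A thinned PBS-treated EC held a median of 21 UMIs of the 10 genes, with 8 and 50 at the 5th and 95th percentile, and a cGAMP-treated EC a median of 63, with 29 and 105. Of the 1327 thinned cGAMP-treated ECs, 1306 or 98.4% (97.6 to 99.0) lay above the PBS median, and 68.3% (65.7 to 70.8) lay above the 95th percentile of PBS. Of the 2447 PBS-treated ECs, 43 or 1.76% (1.27 to 2.36) lay above the cGAMP median. The coefficient of variation between cells, which falls as the mean rises, was 57.9% in the PBS library against 37.7% in the cGAMP library, while the variance over the mean was 8.01 against 9.11. No separate group of cGAMP-treated ECs at the PBS level was seen in the histogram.

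By cluster, the share of cGAMP-treated ECs above the 95th percentile of all PBS-treated ECs was 85.1% (80.7 to 88.7) in stalk-like ECs and 38.9% (31.7 to 46.4) in the proliferative cluster. The PBS-treated ECs above the cGAMP median were most frequent in the Gal tip-like cluster, with 16 of 377 cells or 4.24% (2.44 to 6.80), against 2 of 337 stalk-like ECs or 0.593% (0.0720 to 2.13). The median of a PBS-treated EC was 27 UMIs in the Gal tip-like cluster and 15 in the Ung cluster, and that of a cGAMP-treated EC was 64 and 56.

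**Figure D5:**
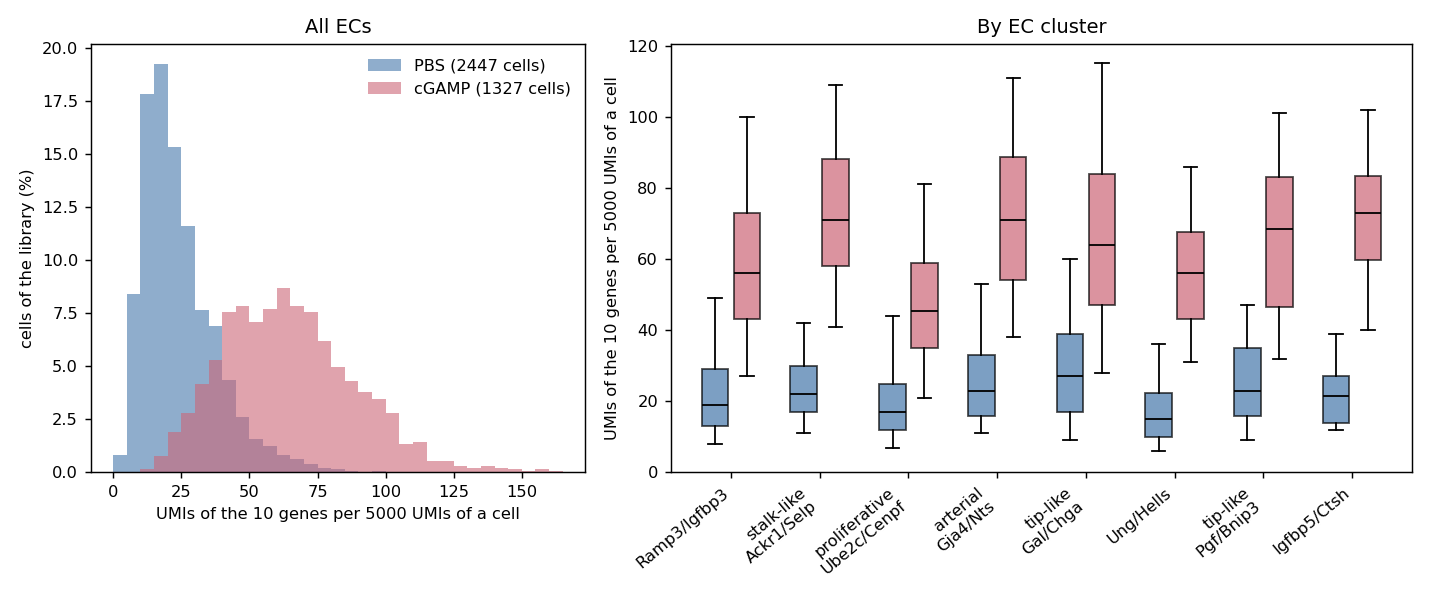
UMIs of the 10 genes per cell after thinning to 5000 UMIs, as histograms of each library in percent of its cells (left) and by EC cluster (right, PBS in blue and cGAMP in red). Boxes show the median and quartiles, and whiskers the 5th and 95th percentiles. The median is 21 in the PBS library against 63 in the cGAMP library, and in each cluster the cGAMP box lies above the PBS box.

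Within a library, the heavy and light chains varied together from cell to cell, and the other genes were only weakly correlated. Over the 45 pairs of genes, the median Pearson r of thinned log UMIs was 0.15 over 2447 PBS-treated ECs against 0.17 over 1327 cGAMP-treated ECs, and 0.31 and 0.39 without thinning. The lowest thinned values, 0.05 and 0.03, were those of pairs with Nlrc5, and pairs of other genes of like level were not examined. H2-K1 and H2-D1 had the highest, 0.57 (Spearman 0.59) in the PBS library against 0.68 (0.69) in the cGAMP library. H2-D1 and B2m had 0.48 and 0.47. Cells of a library share their preparation and mouse, and sparse counts lower the correlation of the less abundant genes, so these are descriptions. The genes outside the 10 that were most like their sum over PBS-treated ECs were H2-Q7 (r = 0.54), H2-Q6 (0.41), Irf7 (0.40), Ifitm3 (0.38) and Cxcl9 (0.38), and in the cGAMP library the same genes had 0.57, 0.41, 0.38, 0.52 and 0.46. Over the 16 combinations of cluster and library, centred within each library, the genes most like the mean of the 10 were Igtp (r = 0.92), Parp9 (0.90), Gbp2 (0.89), Trim30a (0.89) and Psme1 (0.87). The 10 genes themselves had between 0.67 (Tap1) and 0.88 (H2-K1) with this mean, of which each is a part.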

How the data were processed

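ECs of 2 LLC tumours, 1 injected with PBS and 1 with cGAMP, were profiled by droplet-based scRNA-seq. The labels name version 2 of the 3' kit and the methods version 3. Per the submitters' processing notes, Cell Ranger 3.0.0 and Seurat 3.1.1 were used with mm10. The values the authors deposited are natural log values of 1 plus a gene's UMIs scaled to 10000 in each cell, for ECs that had passed their filters. Undoing the logarithm gave back UMI counts, with 100% of non-zero values no further than 0.01 from a whole number. There were 92081146 UMIs from 2517 cells for PBS and 63366746 from 1340 cells for cGAMP, with 1 shared cell barcode.

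UMIs were summed over cells as CPM, with exact Poisson intervals, and log2 ratios have exact conditional binomial intervals. Those of shares and of ratios of subunits are exact binomial (Clopper-Pearson) intervals. A gene was called past 2-fold. On simulated counts of 9336 genes at these depths, with 200 changed, 95.7% of intervals held the true ratio and 100% of changed genes had the right sign. The simulated counts were Poisson, as the intervals assume, without extra spread between cells or mice. They therefore check the calculation only and not whether the intervals hold for these data.

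Clustering used Seurat 5.3.0 and R 4.3.3 (2500 variable genes, of which 1786 were kept, anchors, 30 principal components, resolution 0.5). A cluster was named where at least 3 markers of a state were raised 2-fold and its 10 leading genes held more markers of that state than of another. Rebuilt clusters need not be those of the study, and doublets were not removed.

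The text names the 10 genes, pathway genes past 2-fold, the counterparts of the inducible subunits, up to 3 genes per list with the highest level, and the 5 genes most like the 10 by either measure among those with at least 20 CPM. The genes, lists and tests were chosen with earlier results of these data known. The values of 1 gene of the regulator list are not reported here, and its list's counts and median include it. Gene positions are from GENCODE vM21, and matplotlib 3.10.9 drew the figures. The alternatives tried were other scalings, depths, cell filters, CPM minimums and clusterings.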

Additional observations from a re-analysis of the deposited data

How the results depend on the processing

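No paired analysis was possible because each condition has 1 library. All 60 ratios of a member under an alternative kept the direction of the value reported, from 0.69 to 1.67, and none moved by more than 1.11-fold. The 1 that crossed 2-fold was that of Psmb10 with median-of-ratios scaling, where 8 members in place of 7 reached 2-fold. The log2 ratio of the 10 members summed, 1.45, was 1.43 as the mean of each cell's own CPM, 1.52 with median-of-ratios scaling, 1.43 with cells thinned before summing, 1.41 without cells holding leucocyte UMIs and 1.41 with a mitochondrial limit of 5%. Its lowest value in a cluster, 1.17 in the Gal tip-like cluster, was 1.16 at resolution 0.8 (11 clusters), again in a cluster led by Gal and Chga. At resolution 0.3 (4 clusters) it was 1.25, in a tip-like cluster led by Pgf and Gal. With all variable genes (7 clusters) it was 1.23, in a tip-like cluster led by Bnip3 and Ankrd1. Without integration (5 clusters) it was 1.27, in an unnamed cluster led by Ramp3 and Gdf15. Which cluster was lowest thus depended on the clustering. The highest value of this ratio in a cluster, 1.72, was 1.60 at resolution 0.3 and 1.62 without integration. Both were in a stalk-like cluster led by Igfbp5 and Ackr1 in place of the unnamed Igfbp5 and Ung clusters. With cluster proportions held equal, the log2 change of the ratio of Psmb8 to Psmb5 was 0.87 in place of 0.95, that of Psmb9 to Psmb6 0.82 in place of 0.89 and that of Psmb10 to Psmb7 0.40 in place of 0.49. The number of all genes at least 2-fold higher was 173, and 103 or 307 with a minimum of 20 or 1 CPM, since fewer or more genes were tested. Without thinning, the median r of member pairs was 0.31 in the PBS and 0.39 in the cGAMP library. The cause of the other movements was not tested. With 1 mouse per condition, none of these alternatives bears on the spread between mice. Nlrc5, at 586 and 703 UMIs, is the member whose values depth limits most.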
